A study of Mus musculus with 44 samples.

Results

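The RNA that remained in a synaptosome fraction was compared with the RNA of the whole homogenate in mice in which the ribosome tag of the study had not been induced. The comparison holds 6 of the 44 libraries of the series, chosen by their labels: 3 SN_input libraries (total RNA of the synaptosome fraction) and 3 Input libraries (total RNA of the homogenate), with replicate letters A, B and C in each. The tissue was dorsal cortex with hippocampus, and the mice were killed at postnatal days 28 to 29. All mice of both groups, controls included, carried a Cre recombinase that tamoxifen activates (CX3CR1-CreERT2) and a floxed allele of RPL10a-GFP, a ribosomal protein fused to a fluorescent tag. The labels give 1 copy of each (+/-), whereas the series' design text gives the tagged allele as fl/fl. Per the labels the control mice were given vehicle on postnatal days 15, 17 and 19, whereas the series' design calls them untreated. Cre was driven by Cx3cr1, which is expressed in microglia and also in other macrophages. Tamoxifen mice, at 100 mg per kg on those days, gave 2 further sets that are used here for reference: 3 Input and 3 SN_input libraries with letters D to F in the same library set as the controls, and 5 and 5 with letters G to K in a second set. Whether a letter is 1 animal is not stated, so p-values measure the spread between libraries, which may be technical.

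Synaptosomes are presynaptic boutons that tear off and reseal when brain tissue is homogenized, often with the attached postsynaptic membrane and pieces of glial processes. They hold mitochondria and the RNA of those mitochondria, but no nuclei, and a small share of neuronal mRNA is carried along dendrites and axons to be translated near synapses. Preparations of this kind also collect myelin fragments and the fine processes of astrocytes and microglia, which touch synapses. The comparison asks which RNAs such a preparation keeps and which it loses.

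Input held 4423004 to 9943319 assigned reads per library and SN_input 3922657 to 9664824, and 14229 to 16335 genes had at least 1 read. Levels below are CPM, a gene's reads scaled to the size of its library, after TMM scaling, an edgeR procedure that sets the libraries to a common level from the bulk of their genes. An absent gene could still be present at up to 3 reads, which were worth between 0.302 and 0.765 CPM before that scaling; this floor covers counting error only. Reads with more than 1 alignment, which were not assigned to genes, made up 33.6% ± 5.69 of reads in Input and 36.0% ± 5.28 in SN_input (SD, n = 3 each). Genes with near-identical copies are therefore uncertain. The libraries of a group were not close to each other: the correlation of log2 CPM across tested genes was 0.655 to 0.746 within Input, 0.701 to 0.726 within SN_input and 0.612 to 0.695 between the fractions. The fit also held the first-set tamoxifen libraries, and its biological coefficient of variation was 1.12, against 0.38 in the second set. Input A stood apart from Input B and C, with 1.81% of assigned reads from nuclear-encoded respiratory chain genes against 7.36% and 7.13%. The neuronal mRNA Snap25 lay between 811 and 4076 CPM in all 6 libraries, and the astrocyte, myelin and microglial markers described below were also present, which fits the labelled brain tissue.

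None of the 13455 genes tested passed an adjusted p-value of 0.05 in the 3 against 3 comparison by edgeR's quasi-likelihood test (percent called 0). The same comparison gave 277 genes with DESeq2 (208 higher and 69 lower in SN_input) and 17 with limma voom, all higher. Among the smallest DESeq2 p-values were genes with extreme fitted log2 fold changes, such as 22.1 for Phka1 and -23 for AU040972. These cannot be read as sizes, and their unadjusted p by edgeR was 0.0152 and 0.0188. Without adjustment 1261 genes (9.37%) had p under 0.05 by edgeR, of which 797 (5.92%) were higher and 464 (3.45%) lower in SN_input. This balance depended on the scaling: with total counts 461 were higher and 799 lower. For 1351 genes (10% of those tested) all 3 SN_input libraries lay above all 3 Input libraries, and for 1157 (8.6%) all 3 lay below. These are the backgrounds against which the gene groups below are read. The median log2 fold change of all genes tested was -0.15. It was -0.14 and -0.10 when scaled by RLE factors or without mitochondrial genes, and -0.54 when scaled by total counts, and group medians below are as fitted, without subtracting these. In bulk libraries, fewer cell fragments of a type and less RNA per fragment cannot be told apart.

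Mitochondrially encoded RNA was higher in SN_input and was the most abundant of the 22 gene lists there. The mitochondrial genome encodes both ribosomal RNAs of the organelle, its transfer RNAs and core subunits of the respiratory chain. Its transcripts made up 1.89%, 4.49% and 3.35% of assigned reads in Input A, B and C, and 26.4%, 35.6% and 11.7% in SN_input A, B and C. The groups did not overlap, with means of 3.24% ± 1.3 and 24.6% ± 12 (SD, n = 3 each), and the two-sided exact permutation p was 0.1, the smallest that 3 against 3 allows. Of the 37 transcripts of the list 21 were tested, 16 of them had all SN_input libraries above all Input libraries and 14 had an unadjusted p under 0.05, all higher. The median log2 fold change was 3.35, with 2.825 under total-count and 3.36 under RLE scaling, and it ran from 2.23 without SN_input B to 4.04 without Input B. DESeq2 called 11 of the 21 and limma voom 3. In all 6 libraries 11 of the 37 transcripts were listed at 0, among them the abundant messengers mt-Co2 and mt-Atp6, so the list covers the organelle's RNA only in part. Strand use in counting is not stated, so mt-Nd6, encoded opposite to its neighbours, is uncertain.

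The large ribosomal RNA of the organelle, mt-Rnr2 (ENSMUSG00000064339, GRCm38 chromosome M, 1094 to 2675, plus strand), dominated that class. Its level was 3679, 27573 and 16069 CPM in Input A, B and C, and 182176, 340504 and 48362 CPM in SN_input A, B and C. All SN_input libraries were above all Input libraries, but the libraries of each group were far apart, with Input A and SN_input C the lowest of theirs, and the log2 fold change of 3.59 ± 1.23 (SE) had an adjusted p of 0.454 by edgeR. The small ribosomal RNA, mt-Rnr1, was at 485, 3387 and 2139 CPM in Input and at 31895, 31604 and 5631 CPM in SN_input, a log2 fold change of 3.52 ± 1.12 (SE, edgeR adjusted p = 0.449). The messenger mt-Cytb, which encodes a core subunit of complex III, varied far less. It stood at 2707, 1154 and 1705 CPM in Input and at 11503, 10195 and 11082 CPM in SN_input, a log2 fold change of 2.56 ± 0.65 (SE, edgeR adjusted p = 0.273). The 3 SN_input libraries were thus close to each other for the messenger, while SN_input C was the low library for both ribosomal RNAs.

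Both ribosomal RNAs and the nuclear RNA Malat1, whose fold change had the opposite sign, are shown with the longest run of A in each, since cDNA synthesis with the kit used here is primed on A stretches. Sequences are from the GENCODE M21 transcripts (GRCm38), 5′ to 3′ on the transcript's strand, with the run of A in capitals and up to 25 bases on either side.
mt-Rnr2, chrM:1463-1519 (plus): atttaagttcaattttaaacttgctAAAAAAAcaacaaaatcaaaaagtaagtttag
mt-Rnr1, chrM:680-734 (plus): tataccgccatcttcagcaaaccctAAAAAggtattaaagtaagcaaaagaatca
Malat1, chr19:5795963-5796024 (minus): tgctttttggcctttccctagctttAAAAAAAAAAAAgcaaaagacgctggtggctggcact
The runs were 7, 5 and 12 bases long. Of the 141767 transcripts of the annotation, 22.3%, 64.5% and 4.07% hold a run at least as long. The run is a description of the sequence, and its part in the counts was not tested.

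**Figure D1:**
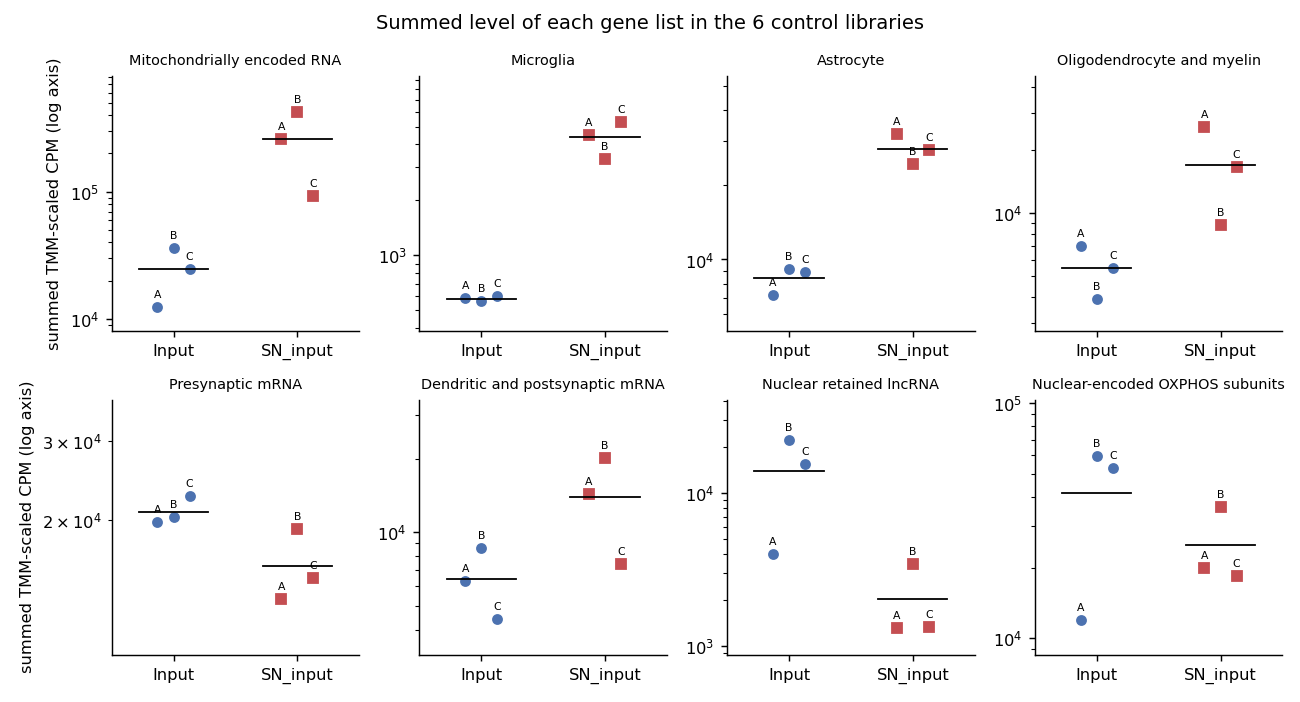
Summed CPM (TMM scaled, log axis) of 8 gene lists in each control library, circles for Input and squares for SN_input, with the replicate letter above each point and a bar at the group mean. Mitochondrially encoded, microglial, astrocyte and oligodendrocyte sums lie higher in all 3 SN_input libraries, nuclear retained and presynaptic sums lie lower, and Input A is the low Input library for respiratory chain genes encoded in the nucleus.

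Among the cell type lists with more than 3 tested genes, microglial markers had the highest median. Microglia are the resident macrophages of the brain and survey synapses with motile processes. Of 25 markers, all tested, 21 had every SN_input library above every Input library, 20 had an unadjusted p under 0.05, and all 25 log2 fold changes were above 0. Their summed level was 581, 560 and 598 CPM in Input A, B and C and 4498, 3316 and 5280 CPM in SN_input, a ratio of means of 7.53. The Input sums were close to each other, and every SN_input sum was far above them. The median log2 fold change was 3.18, with 2.79 to 3.25 under other scalings and 2.81 to 3.54 when any single library was left out. None of the 25 passed adjustment by edgeR as fitted here, whereas 16 did with DESeq2 and 2 with limma voom.

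Ctss, which encodes the lysosomal protease cathepsin S, had the smallest p-value of all genes tested (ENSMUSG00000038642, GRCm38 chromosome 3, 95526786 to 95556403). Its level was 46.1, 46.0 and 31.5 CPM in Input and 625, 558 and 510 CPM in SN_input, so the groups were far apart and tight. The log2 fold change was 3.78 ± 0.66 (SE, edgeR adjusted p = 0.0843), and its adjusted p ran from 6.24e-06 with DESeq2 to 0.487 with total-count scaling over the other tools, scalings, filters and sets of libraries run for single genes, each single library left out included. The 3 chains of the complement protein C1q, which tags synapses and debris for removal, were all higher. C1qa was at 35.6, 25.4 and 14 CPM in Input and 329, 222 and 446 CPM in SN_input (log2 fold change 3.73 ± 0.71 (SE), edgeR adjusted p = 0.0843). C1qb had a log2 fold change of 3.32 and C1qc of 3.30, each with no overlap between the groups.

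Cx3cr1, the fractalkine receptor whose locus drives Cre in these mice, was at 3.12, 14.3 and 20.5 CPM in Input and 111, 61.3 and 73.5 CPM in SN_input. Its log2 fold change was 2.7 ± 0.94 (SE, edgeR adjusted p = 0.454), with all SN_input libraries higher. The next pair of microglial genes was chosen after its values were seen. Itgam, the CD11b integrin chain, had the largest log2 fold change of the list at 5.29, with 1.19 to 4.55 CPM in Input and 40.9 to 155 CPM in SN_input. Aif1, the cytoskeletal protein IBA1, had the smallest at 0.58, with 15.2, 54.5 and 174 CPM in Input and 112 to 136 CPM in SN_input. Its groups overlapped, and Input C alone exceeded every SN_input library.

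Markers of border macrophages, which share several genes with microglia, were scarce. The list had 10 markers, 3 were tested, and its summed level was 9.71, 40.0 and 5.56 CPM in Input and 66.2, 49.1 and 7.24 CPM in SN_input, with overlap. Lyve1 and Cd209f were at 0 in all 6 libraries. Stab1, a scavenger receptor, was at 0 to 1.79 CPM in Input and 6.02 to 49.7 CPM in SN_input, whereas Pf4 and Mrc1 overlapped between the groups. The list's median of 4.80 rests on these 3 genes. Without SN_input B 4 members passed the filter and their median was 0.23, so the genes and the libraries changed together.

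Astrocyte markers were also higher in SN_input. Fine processes of astrocytes wrap synapses and clear glutamate from them. Of 30 markers, all tested, 17 had no overlap and were higher, 18 had an unadjusted p under 0.05 and were higher, and none was lower by either measure. The summed level was 7192, 9188 and 8932 CPM in Input and 31984, 24351 and 27557 CPM in SN_input. The median log2 fold change was 1.72, with 1.31 to 1.78 under other scalings. DESeq2 called 9 and limma voom 5 of them, all higher.

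Single genes showed the separation. Slc1a2, the main glutamate transporter, was at 483, 712 and 376 CPM in Input and 4906, 4341 and 1713 CPM in SN_input, a log2 fold change of 2.80 ± 0.64 (SE, edgeR adjusted p = 0.207). Kcnj10, the potassium channel Kir4.1, is in none of the lists and was named for its p-value. It was at 14, 8.22 and 14.8 CPM in Input and 280, 78.1 and 133 CPM in SN_input, a log2 fold change of 3.73. Of the most abundant members, Apoe had a log2 fold change of 2.78 and Cst3 of 1.96, both with no overlap. Microglia express both as well, and from which cells these reads came was not tested. The short metallothionein mRNAs Mt1, Mt2 and Mt3, picked after their values were seen, had log2 fold changes of -0.42, -0.22 and -0.61 with overlapping groups.

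Some oligodendrocyte markers were higher in SN_input. Of 26 markers, all tested, 10 had no overlap and were higher, 8 had an unadjusted p under 0.05, and none was lower by either measure. Mbp, a myelin protein whose mRNA is carried into the myelin sheath, ranged widely. It was at 1579, 246 and 416 CPM in Input A, B and C and at 12897, 873 and 6012 CPM in SN_input, so SN_input B lay below Input A. Its log2 fold change was 3.14 ± 0.97 (SE, edgeR adjusted p = 0.42), and it ran from 2.26 without SN_input A to 4.32 without Input A. Mobp reached 2671 CPM in SN_input A but 236 CPM in SN_input B, within the range of Input. The list's median log2 fold change was 0.96. Of 12 markers of oligodendrocyte precursors 3 had no overlap and were higher, among them Cspg5 and Ptprz1 with log2 fold changes of 1.72 and 2.63, and Lhfpl3 overlapped.

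**Figure D2:**
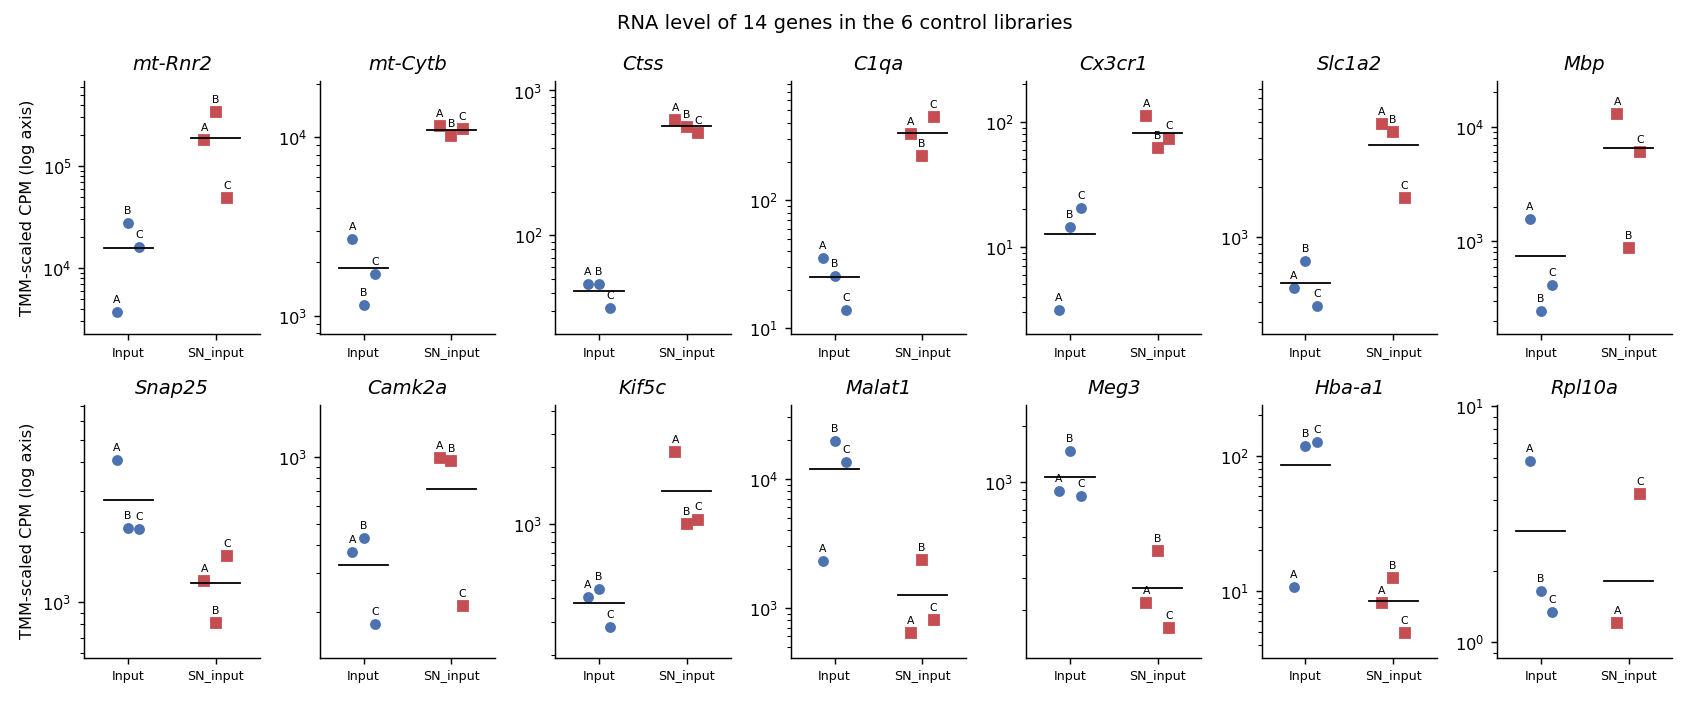
RNA level (TMM-scaled CPM, log axis) of 14 genes in the 3 Input (circles) and 3 SN_input (squares) libraries, letters giving the replicate and bars the group mean. Ctss, C1qa, Cx3cr1 and Slc1a2 separate the fractions upward, Snap25 and Meg3 downward, and Mbp, Camk2a, Malat1, Hba-a1 and Rpl10a overlap. Rpl10a has no point for SN_input B, where it was at 0.

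Among neuronal messengers, the list of 30 presynaptic mRNAs, which encode proteins of vesicle release and recycling, had 13 members with every SN_input library below every Input library, against a background of 8.6%, and 5 with every one above. At an unadjusted p under 0.05 by edgeR the counts were nearly even, with 4 lower and 3 higher. The list's median log2 fold change was -0.71, with -1.10 to -0.67 under other scalings. Snap25, a membrane fusion protein, was at 4076, 2089 and 2058 CPM in Input and 1237, 811 and 1579 CPM in SN_input (log2 fold change -1.18 ± 0.58 (SE), edgeR adjusted p = 0.542). Nrgn, in that list although its product neurogranin is postsynaptic, was at 3433, 5366 and 9747 CPM in Input and 2880, 2312 and 3357 CPM in SN_input, a log2 fold change of -1.12. Syt1, the calcium sensor of release, overlapped, with a log2 fold change of 0.55.

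Members of that list lay on both sides. Picked after their values were seen, the vesicle membrane proteins Syp and Sv2a had log2 fold changes of 1.49 and 1.27, the vesicular transporters Slc17a7 and Slc32a1 of 1.01 and 2.19, and the active zone scaffold Bsn of 1.28, each with no overlap. Gap43, a growth cone protein, Dnm1, the dynamin of endocytosis, and Nsf, which acts in membrane fusion, had log2 fold changes of -1.40, -1.21 and -1.27, also with no overlap. None of these genes passed adjustment by edgeR.

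Dendritic and postsynaptic mRNAs were more often higher than lower. Of 30 members, all tested, 7 had no overlap and were higher against 1 that was lower, and 7 had an unadjusted p under 0.05, all higher. The median log2 fold change was 0.98, with 0.50 to 1.04 under other scalings. Kif5a and Kif5c, motors that carry mRNA along microtubules, were both higher with no overlap. Kif5c was at 407, 447 and 280 CPM in Input and 2426, 1004 and 1055 CPM in SN_input, a log2 fold change of 1.98 ± 0.57 (SE, edgeR adjusted p = 0.401). Camk2a, the kinase subunit whose mRNA is a textbook dendritic message, was at 373, 429 and 176 CPM in Input and 982, 960 and 212 CPM in SN_input. SN_input C was thus within the range of Input, and the log2 fold change of 1.14 ± 0.64 (SE) had an edgeR adjusted p of 0.624. Shank1, a scaffold of the postsynaptic density with a long dendritic message, spanned 57.4 to 2266 CPM in Input and 307 to 7491 CPM in SN_input. Its log2 fold change of 1.57 turned to -0.66 without SN_input B. Shank3, chosen after its values were seen, was at 4.21 to 10.6 CPM in Input and 27.3 to 107 CPM in SN_input.

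Of 20 interneuron and neuropeptide mRNAs 4 were higher and 1 lower with no overlap, 4 were higher and 1 lower at an unadjusted p under 0.05, and the median log2 fold change was 0.68. Cck and Sst were among the most abundant and varied widely within each fraction, from 415 to 2726 and 286 to 2032 CPM in Input. Their log2 fold changes of 0.00 and 0.21 were -0.41 and -0.20 with total-count scaling. Chgb, a granin of dense-core vesicles, had a log2 fold change of 1.42 and an unadjusted p of 0.0306, with overlap, and the log2 fold change was 0.70 without SN_input B. Of 16 immediate early genes tested, which respond to neuronal activity, 1 was lower with no overlap and none had an unadjusted p under 0.05. Egr1, Egr3 and Egr4 had log2 fold changes of -0.99, -0.30 and -0.36, and Egr1 was at 489 CPM in Input A against 121 to 144 CPM in the other 5 libraries.

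Long noncoding RNA took a smaller share of reads in SN_input. Long noncoding RNAs held 2.90% ± 1.31 of assigned reads in Input and 0.869% ± 0.353 in SN_input (SD, n = 3 each), without overlap (exact permutation p = 0.1, two-sided, the smallest possible). Malat1 alone held 0.347%, 2.42% and 1.80% of assigned reads in Input A, B and C and 0.0646%, 0.196% and 0.103% in SN_input. The other long noncoding RNAs held 1.13% to 1.64% in Input and 0.558% to 1.08% in SN_input. All these shares are of assigned reads with the mitochondrial ones, which held 1.89% to 4.49% in Input and 11.7% to 35.6% in SN_input. A larger mitochondrial share lowers that of every other class, and shares of the remaining reads were not compared. Of 663 long noncoding genes tested 74 were lower and 22 higher at an unadjusted p under 0.05. These leave out 102 tested genes of the annotation class TEC (unconfirmed transcripts), which the read shares include. Of the 663, 8.9% were lower without overlap, near the background of 8.6%, and their median log2 fold change in the second set was 0.04. Of 14 tested members of a list of nuclear retained transcripts 13 had log2 fold changes below 0, 4 were lower with no overlap and none was higher without overlap. The median was -1.70, with -2.07 to -1.66 under other scalings. Malat1 (ENSMUSG00000092341, GRCm38 chromosome 19, 5795690 to 5802672, minus strand), which sits in nuclear speckles, was at 2294, 19688 and 13421 CPM in Input A, B and C. In SN_input it was at 634, 2351 and 808 CPM, so Input A lay just below SN_input B. Its log2 fold change was -3.22 ± 0.95 (SE, edgeR adjusted p = 0.401), and it ran from -4.055 without SN_input B to -2.63 without Input B. Meg3 was at 887, 1469 and 836 CPM in Input and 218, 416 and 159 CPM in SN_input, a log2 fold change of -2.01 ± 0.68 (SE, edgeR adjusted p = 0.454) with no overlap. Pantr1 overlapped at -0.85. Replication-dependent histone mRNAs, which lack a poly(A) tail, were sparse, with 11 of 67 tested, none separated and 41 at 0 in all 6 libraries.

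**Figure D3:**
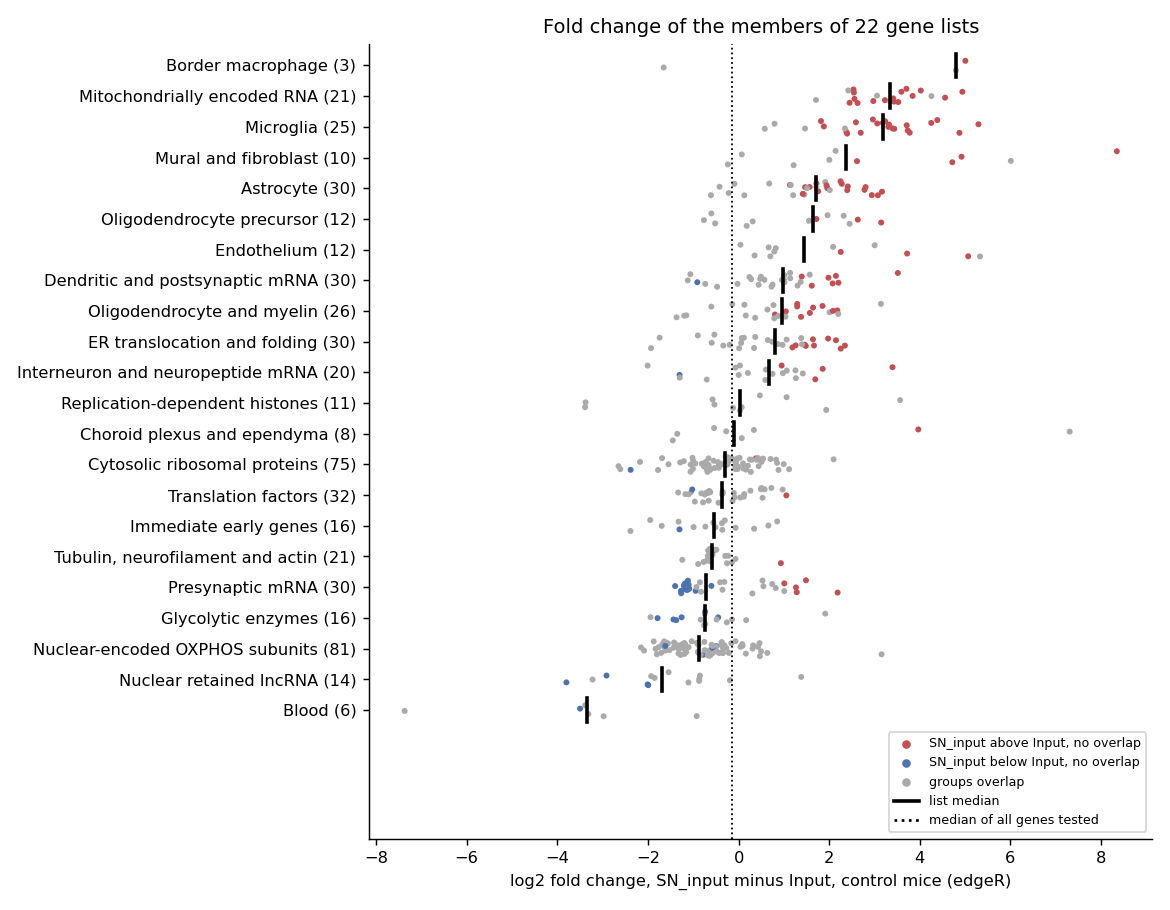
Log2 fold change (edgeR, SN_input minus Input, control mice) of each tested member of 22 gene lists, 1 dot per gene, coloured by whether the 3 SN_input libraries lie all above, all below or among the 3 Input libraries, with the number tested in brackets, the list median as a bar and the median of all genes as a dotted line at -0.15. Microglial and mitochondrially encoded members lie almost all to the right, and nuclear retained and presynaptic medians to the left.

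Vascular and blood markers were sparse, and most single genes tested overlapped between the fractions. The summed endothelial and mural levels were nevertheless higher in SN_input without overlap. Of 12 endothelial genes tested all 12 had log2 fold changes above 0, 3 were higher with no overlap and 1 had an unadjusted p under 0.05. Their median was 1.45, and the summed level of the list was 99.3, 34.2 and 85.0 CPM in Input and 177, 213 and 240 CPM in SN_input. The most abundant endothelial gene, Egfl7, had a log2 fold change of 2.25, while Slc2a1 and Slco1c1 overlapped. Of 10 mural and fibroblast genes tested 9 had log2 fold changes above 0, 4 were higher with no overlap and 5 had an unadjusted p under 0.05, all higher. Their median was 2.38, and the summed level of the list was 50.1, 159 and 30 CPM in Input and 333, 341 and 276 CPM in SN_input. Vtn, which encodes vitronectin and is strong in pericytes, was at 4.25, 0.299 and 3.70 CPM in Input and 62.2, 54.9 and 103 CPM in SN_input (log2 fold change 4.72 ± 1.01 (SE), edgeR adjusted p = 0.142). The collagen gene Col1a2 and the proteoglycan gene Dcn overlapped. Haemoglobin mRNA, from red cells left in vessels, was at low levels in SN_input and also in Input A. Of 6 blood genes tested all had log2 fold changes below 0, 5 had an unadjusted p under 0.05 and 1 was lower without overlap. Their median was -3.35, and DESeq2 called 3 lower. Hbb-bs was at 24.9, 400.3 and 350.4 CPM in Input and 12.9, 66.8 and 19.1 CPM in SN_input. Hba-a1 had a log2 fold change of -3.32 ± 0.98 (SE, edgeR adjusted p = 0.401), and Hba-a2 of -3.39, both with overlap through Input A. The summed level of choroid plexus and ependyma markers overlapped, and of 8 tested 1 was higher with no overlap. Ttr, the main product of the choroid plexus, was at 143 to 1605 CPM in Input and 510 to 1196 CPM in SN_input.

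Messengers of general cell functions were taken as 6 lists. Of 30 genes of protein entry and folding in the endoplasmic reticulum 10 were higher with no overlap and none lower, with a median log2 fold change of 0.80, and 0.33 under total-count scaling. Canx, a membrane-bound chaperone of that compartment, was at 258, 159 and 136 CPM in Input and 489, 797 and 467 CPM in SN_input (log2 fold change 1.66 ± 0.55 (SE), edgeR adjusted p = 0.454), and Hsp90b1 had a log2 fold change of 1.48. Sec62 was at 0.06 and overlapped. Of 16 glycolytic enzymes, which are cytosolic, 6 were lower with no overlap and none higher, while at an unadjusted p under 0.05 1 was lower and 1 higher. Aldoa was at 1738, 2084 and 1661 CPM in Input and 614, 589 and 1090 CPM in SN_input, a log2 fold change of -1.26, whereas its astrocyte form Aldoc was at 1.91 with overlap and Ldhb at -0.14. Gapdh had at most 14.7 CPM in any library and has many near-identical copies, so its value is uncertain. Of 21 tubulin, neurofilament and actin genes 1 was lower and 1 higher with no overlap, at a median of -0.58. Tmsb4x, Actb and Map1b overlapped at -1.24, -0.07 and -0.70.

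Most messengers of the translation apparatus overlapped between the fractions. Of 75 cytosolic ribosomal protein genes tested 73 overlapped between the fractions, with 1 higher and 1 lower, and the median log2 fold change was -0.30. That median was -0.75 with total-count scaling and -0.04 with limma voom, -0.88 without SN_input B, -0.76 without Input A and -0.10 without Input B. Rpl4, the most abundant of them, was at 245, 288 and 202 CPM in Input and 335, 314 and 308 CPM in SN_input, a log2 fold change of 0.38 that was just below 0 with total-count scaling. Rps3 and Rps14 overlapped at -0.06 and -0.77. Rpl10a, the gene tagged in this strain, was at 5.85, 1.64 and 1.35 CPM in Input and 1.21, 0 and 4.23 CPM in SN_input. These rest on 88, 11 and 8 reads in Input and 8, 0 and 52 in SN_input, and the tag itself has no feature in the counts. Of 32 translation factors 29 overlapped, with Eef2, Eif5 and Eif5a at 0.72, -0.44 and 0.13.

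Nuclear-encoded subunits of the respiratory chain were lower in SN_input by their median, unlike the mitochondrially encoded ones. Of 81 tested 69 had a log2 fold change below 0, 10 had an unadjusted p under 0.05, all lower, and 4 were lower with no overlap, a smaller share than the background of 8.6%. The median was -0.88, and -1.23 to -0.84 under other scalings. The list's values depended on single libraries. Its summed level was 11977, 59831 and 53061 CPM in Input A, B and C and 19958, 36294 and 18482 CPM in SN_input. Without Input A the median was -1.31 and 29 members had an unadjusted p under 0.05, all lower. Without SN_input B it was -1.36 with 21 such members, and without Input C it was -0.59 with 0 members. With all 6 libraries 28 members were lower at that level under total-count scaling and 0 with limma voom. Cox6a1, Cox8a and Cox6c, small subunits of complex IV, were at 335, 265 and 187 CPM in Input A and at 2446, 2277 and 3222 CPM in Input B. Their log2 fold changes were 0.47, -0.07 and -0.47, and each changed sign when 1 library was left out.

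Across single genes outside the lists, a rule took the 5 smallest p-values in each direction. Apc2, a microtubule and Wnt pathway protein of neurons, completed the genes higher in SN_input, at 9.51, 17.8 and 2.53 CPM in Input and 210, 161 and 119 CPM in SN_input (log2 fold change 4.04 ± 0.79 (SE), edgeR adjusted p = 0.0843). The lower genes were further from the threshold. Ahi1, a protein of the primary cilium, was at 152, 749 and 612 CPM in Input and 41.8, 47.3 and 30.8 CPM in SN_input, a log2 fold change of -3.66 ± 0.83 (SE, edgeR adjusted p = 0.207). Kdm1a, a nuclear histone demethylase, Fgfr1op2, and Dynll1, a dynein light chain, had log2 fold changes of -2.66, -2.56 and -2.27. Rgs4, a regulator of G protein signalling, was at 922, 498 and 446 CPM in Input and 213, 182 and 106 CPM in SN_input, a log2 fold change of -1.90. None overlapped, which the rule required.

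By gene class, 12262 protein coding genes had a median log2 fold change of -0.10, 663 long noncoding genes of -0.86 and 325 processed pseudogenes of -0.64. Among protein coding genes of the nuclear genome the median was higher at higher GC content of the longest annotated transcript, from -0.49 in the lowest quartile (up to 44.9% GC) to 0.27 in the highest (from 54.7%). The share of genes higher without overlap went from 7.41% to 14.2% and of those lower without overlap from 13% to 5.52%. By transcript length the medians were -0.22, -0.13, -0.08 and 0.03 from the shortest to the longest quartile, and the share higher without overlap was 8.78%, 9.37%, 10.7% and 13.5%. Spearman's rho across 12129 genes was 0.18 with GC content and 0.06 with length, and in the second set 0.23 and -0.16. The second set thus had the opposite sign for length, with medians of 0.26, -0.18, -0.27 and -0.20 from the shortest to the longest quartile, and its processed pseudogenes were at 1.83. Genes share libraries and amplification and are not independent replicates, so these are descriptions.

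The tamoxifen mice of the same set allowed a test of whether the fraction difference depended on treatment. No gene passed for the difference between control and tamoxifen mice (percent called 0, edgeR interaction test over the same 12 libraries), 536 genes (3.98%) had an unadjusted p under 0.05, limma voom gave 0, and DESeq2 18. The same fit called 0 genes for the fraction difference of control mice itself, so it could hardly find a difference between 2 such differences. The lack of calls therefore does not show independence from treatment. Among genes with a mean log2 CPM of at least 4, Pogk, Iars2 and Mrps16 had the smallest p-values for that difference. Mrps16, a mitochondrial ribosomal protein, had a log2 fold change of -2.21 in control and 1.31 in tamoxifen mice. The tamoxifen libraries of the first set were uneven, with mitochondrial shares of 1.19%, 12.6% and 11.5% in Input and 15.3%, 61.2% and 65.9% in SN_input D, E and F, and 10055 to 16792 genes detected in SN_input. The median log2 fold change of the microglial list was 3.18 in control and 3.10 in first-set tamoxifen mice, and that of the mitochondrially encoded list 3.35 and 3.38. The respiratory chain list stood at -0.88 and 0.72, and immediate early genes at -0.53 and -1.98. The fraction difference in tamoxifen mice of the first set was itself called for 12 genes (0.0892%), and 9.86% had an unadjusted p under 0.05. Both comparisons are fitted together but share no library.

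In the second set, with 5 against 5 libraries and no library in common with the controls, the fraction difference was called for 6926 of 14448 genes (47.9%), 3567 (24.7%) higher and 3359 (23.2%) lower. The balance depended on the scaling, with 1685 called higher and 7491 lower under total counts, and 3591 and 4845 with limma voom. In the edgeR fit with TMM all 25 microglial, all 30 astrocyte and all 18 mitochondrially encoded members tested rose, with median log2 fold changes of 3.61, 2.03 and 3.88. Presynaptic mRNAs fell for 21 of 30 and rose for 6, and dendritic mRNAs rose for 17 of 30 and fell for 5. Of the 762 genes with an unadjusted p under 0.05 and higher in control SN_input that were tested in both, 461 (60.5%) were called higher and 60 (7.87%) lower in the second set. Of 382 such genes lower in control SN_input 171 (44.8%) were called lower and 48 (12.6%) higher. Over all 12629 genes tested in both, 26.0% were called higher and 24.6% lower.

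Some list medians differed in sign between the controls and the second set. Respiratory chain subunits rose for 77 of 82 tested in the second set, and cytosolic ribosomal proteins for 80 of 81. Both medians were 1.54 there, against -0.88 and -0.30 in control mice. The share of multiply aligned reads also differed between the fractions of the second set. It was 14.9% ± 0.63 in Input and 39.2% ± 0.68 in SN_input (SD, n = 5 each), against 33.6% and 36.0% in controls. Genes detected averaged 22380 in Input and 16011 in SN_input of that set, against 15582 and 15029 in controls. What part these differences had in the list medians was not tested. In 1 fit of 22 libraries, added after the data were seen, the fraction difference of control mice was tested against that of the second set. It differed for 38 of 16218 genes (0.234%, edgeR, adjusted p under 0.05). Among them were 4 of 84 respiratory chain and 3 of 83 ribosomal protein genes, all relatively lower in control mice. Library set and treatment cannot be told apart in that test. The lists as a whole were not tested, and their control medians depended on single libraries, as given above. Microglia gave 1 gene, Aif1, astrocytes 0 and mitochondrially encoded transcripts 0.

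**Figure D4:**
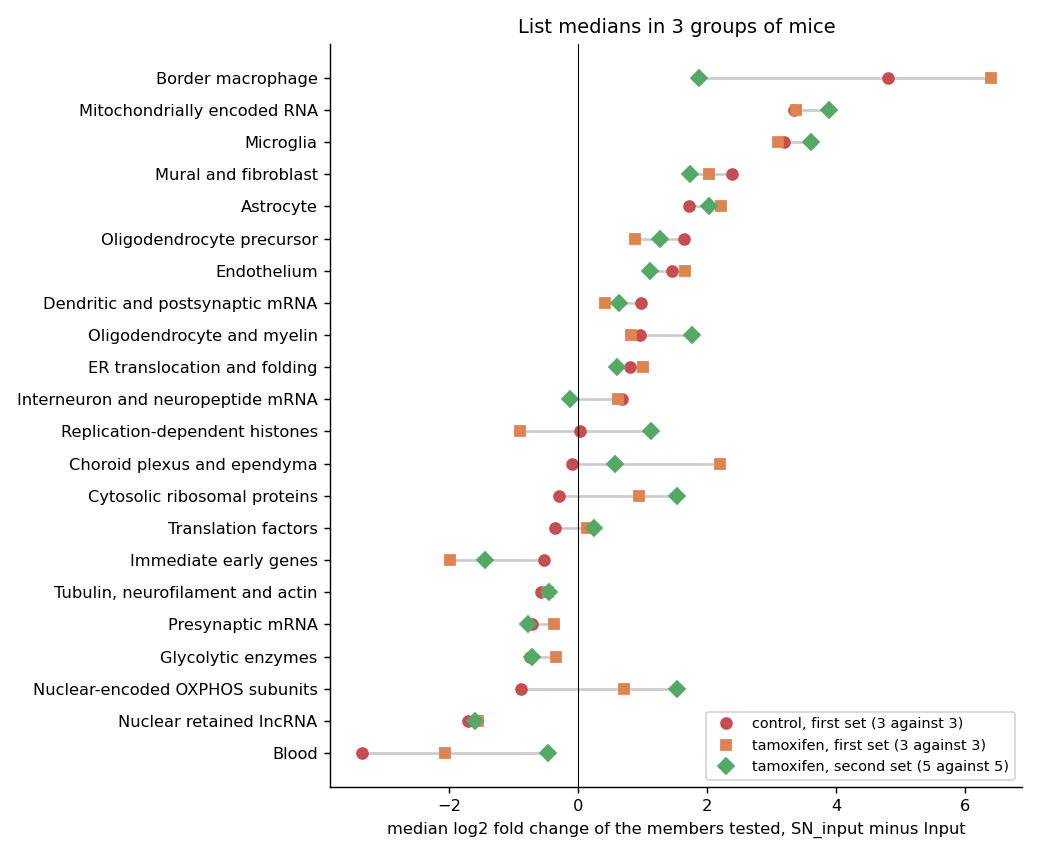
Median log2 fold change (SN_input minus Input) of the members tested in each of 22 gene lists, for control mice (circles), tamoxifen mice of the same set (squares) and tamoxifen mice of the second set (diamonds). Microglial, astrocyte, mitochondrially encoded and nuclear retained medians lie on the same side of 0 in all 3, while respiratory chain subunits encoded in the nucleus lie at -0.88 in control mice and at 0.72 and 1.54 in tamoxifen mice.

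**Figure D5:**
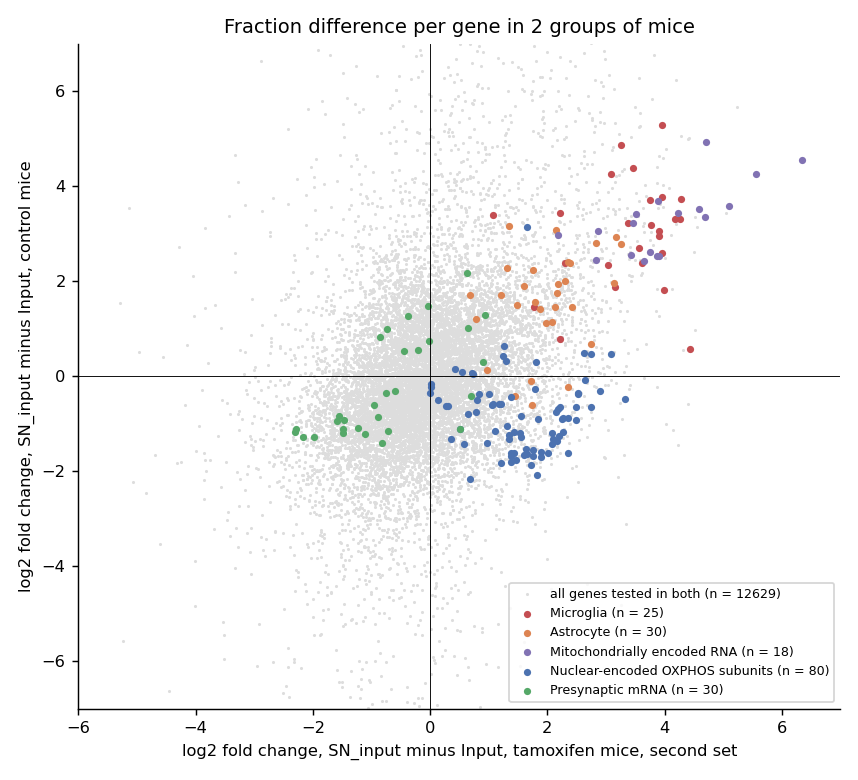
Log2 fold change (SN_input minus Input, edgeR) in control mice (vertical) against that in tamoxifen mice of the second set (horizontal) for 12629 genes tested in both (grey, 205 of them beyond the axes) with members of 5 lists coloured. Microglial, astrocyte and mitochondrially encoded members lie mostly at the upper right, presynaptic members mostly at the lower left, and respiratory chain subunits encoded in the nucleus mostly at the lower right. Spearman's rho over all these genes was 0.367.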

How the data were processed

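Total RNA of homogenate and synaptosome fractions was amplified with SMART-Seq v4, a poly(A)-primed kit, and sequenced. The authors deposited whole-number counts of reads per gene; per the submitters' processing notes FastQC 0.11.7, Trimmomatic 0.38, Bowtie2 2.3.5, STAR 2.7.0d, HTSeq 0.9.1 and edgeR were used, in roles that are not given in the sources used here, nor is the genome build. Of 54146 gene IDs of the first set, 54079 matched GENCODE M21 (GRCm38), which gave names, positions, lengths and GC content.

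Rows that name no gene were left out of library sizes; reads outside features were 4.44% ± 0.971 of Input and 3.29% ± 1.73 of SN_input reads (SD, n = 3 each). R 4.3.3 with edgeR 4.0.16 (TMM, filterByExpr with a minimum count of 10, quasi-likelihood test, Benjamini-Hochberg over all genes tested, threshold 0.05) was fitted to the 12 first-set Input and SN_input libraries without a replicate block. The 3 against 3 control contrast and its difference from the 3 against 3 tamoxifen contrast came from that fit, and the second set from its own fit of 10 libraries. Scripts were tested on simulated data. Alternatives were RLE, total-count and mitochondria-free scaling, no or a strict filter (50 counts in 3 libraries), DESeq2 1.42.0, limma 3.58.1 (voom), thinned counts, other sets of libraries, a replicate block and leaving out each library.

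Genes were named by a rule: per direction the 5 smallest p-values among non-overlapping genes with a mean log2 CPM of at least 4, the 3 most abundant members of each list, a fixed set (Cx3cr1, Rpl10a, Malat1, Snap25, Camk2a, Slc1a2, Mbp, mt-Rnr2, mt-Rnr1), and the 3 smallest p-values of the treatment difference. Of 22 gene lists 4 follow gene symbols and 18 were written by hand. The libraries and lists were chosen with earlier results of these data known. Some genes that this rule names are not reported here.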

Additional observations from a re-analysis of the deposited data

Results flagged for a closer look

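The fraction difference of control mice was compared with that of the second set of tamoxifen mice in 1 fit of 22 libraries, which was added after the data were seen. By edgeR 38 of 16218 genes differed (adjusted p under 0.05), 22 relatively higher and 16 relatively lower in control mice. The tamoxifen mice of the first set, tested against the second set in the same fit, gave 0 such genes and 1575 at an unadjusted p under 0.05, against 2366 for the controls. Treatment and library set cannot be told apart for the controls.

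Of the members of the gene lists and the genes named by rule, 9 were among the 38, all relatively lower in control mice. The values that follow are the log2 fold change of the fraction in control mice minus that in the second set. Among ribosomal proteins it was -7.51 for Rpl5, -3.93 for Fau and -4.44 for Rps12. Rpl5 had at most 5.19 CPM in any control library, and its size is not a bound. Among respiratory chain subunits it was -3.01 for Atp5g1, -3.52 for Ndufa4, -3.93 for Uqcrb and -2.89 for Ndufs4. For Aif1 it was -3.89, with a log2 fold change of 0.58 in control mice and 4.43 in the second set. For Iars2, a mitochondrial tRNA ligase, it was -3.22, with 0.09 and 3.31.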

How the results depend on the processing

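No gene passed adjustment in control mice by edgeR under 7 of the alternatives or when any single library was left out. There were 37 genes without a filter (2184 at an unadjusted p under 0.05, and 753 with the strict filter), 277 with DESeq2, 17 with limma voom and 41 with the replicate block. DESeq2 shared 15 genes with limma voom, 37 with the block fit and 30 with the unfiltered fit. At an unadjusted p under 0.05 there were 982 to 1372 genes without any single library, and 681 without both libraries of letter C, the lowest of the 3 letters. The block fit called 8 astrocyte, 7 mitochondrially encoded and 6 microglial genes, and the unfiltered fit 4, 10 and 6, all higher. What the letters share is not stated. Deviations of same-letter Input and SN_input control libraries correlated at 0.0852, 0.182 and 0.00125 for A, B and C, and not every library correlated best with its own letter, whereas letter B had the highest share of unaligned reads in both fractions (16.1% and 20.5%). These are hints from the data, not the design, so the letters were not taken as pairs. The treatment difference gave 18 genes with DESeq2, and at an unadjusted p under 0.05 it gave 1047 with total counts, 1165 without a filter, 227 with the strict filter, 840 with DESeq2, 1152 with limma voom and 335 with the replicate block. The cause of these changes was not tested.

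Total-count scaling lowered the median of all genes, and list medians with it, to 1.31 for astrocytes, 0.50 for dendritic mRNA, 0.33 for endoplasmic reticulum, -1.11 for glycolysis, -2.07 for nuclear RNA, -1.10 for presynaptic mRNA, -0.31 for histones, -0.76 for translation factors and -0.96 for tubulins. The border macrophage median was 0.65 without a filter, 2.91 with limma voom, 1.68 in the 6 control libraries alone and 1.68 in 24 libraries. The choroid plexus median was 0.39 without a filter, 0.36 with the strict filter, 0.50 with limma voom and 0.40 with the replicate block. Dendritic mRNA was at 0.78 with limma voom. Nuclear RNA was at -1.30 in the 6 control libraries alone and -1.24 with the block, and histones at -0.0822 in those 6.

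Leaving out single libraries gave list medians of 1.58 to 2.29 for astrocytes, 0.23 to 4.18 for border macrophages (3 or 4 genes tested), -0.36 to 1.66 for choroid plexus, 0.62 to 1.19 for dendritic mRNA, 0.45 to 1.03 for endoplasmic reticulum, 1.38 to 2.46 for endothelium, -0.93 to -0.54 for glycolysis, 0.39 to 1.05 for neuropeptides, 1.76 to 3.16 for mural cells, -1.74 to -1.35 for nuclear RNA, -0.89 to -0.53 for presynaptic mRNA and 0.00 to 0.60 for histones.

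Leaving out 1 control library moved the fold of 40 of 81 named genes by over 1.5 times. The fitted direction of 22 named genes changed under some alternative. With total counts Rpl4 was at -0.00155, Cck at -0.41, Sst at -0.20, Folr1 at -0.52, Eif5a at -0.20, Sec62 at -0.41 and Iars2 at -0.33. With limma voom Cox8a was at 0.65, Cox6c at 0.0746, Clic6 at 0.63, Folr1 at -0.58 and Actb at 0.13. With the replicate block Cox8a was at 0.35, Folr1 at -0.61, Eif5a at -0.13 and Actb at 0.0671. Without single libraries the log2 fold change ran from -0.35 to 0.49 for Actb, -0.62 to 0.66 for Cck, -2.04 to 1.66 for Clic6, -0.0204 to 0.86 for Cox6a1, -1.49 to 0.31 for Cox6c, -0.57 to 0.29 for Cox8a, -0.23 to 0.72 for Eif5a, -1.30 to 0.69 for Folr1, -0.94 to 0.21 for Hist1h2bc, -0.26 to 0.88 for Iars2, -0.34 to 0.0164 for Ldhb, -0.84 to 0.12 for Lhfpl3, -4.05 to 0.51 for Pf4, -1.76 to 0.0227 for Pogk, -2.21 to 0.30 for Rpl10a, -0.19 to 0.24 for Rps3, -1.18 to 0.96 for Sec62, -0.66 to 3.10 for Shank1, -0.46 to 0.71 for Sst, -0.42 to 1.04 for Syt1 and -0.15 to 1.63 for Ttr.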

Other observations

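The genes relatively higher in control mice in that same fit lie outside the gene lists, and those named here were chosen after their values were seen. Disp2 had a log2 fold change of the fraction of 2.38 in control mice and -0.91 in the second set. Slc30a3, the vesicular zinc transporter, stood at 2.45 and -0.61, Atp8a1, a phospholipid flippase, at 2.69 and -0.34, and Sez6, a neuronal membrane protein, at 2.15 and -0.84. Cnr1, the cannabinoid receptor of axon terminals, stood at 1.45 and -1.84. Atp2a2, the calcium pump of the endoplasmic reticulum, stood at 1.51 and -0.66.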
